A study of Mus musculus with 9 samples.

Results

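Histone deacetylases remove acetyl groups from lysines of histones and of many other proteins. The zinc-dependent enzymes fall into classes that differ in partners and in place of action. Class I enzymes (Hdac1, Hdac2, Hdac3 and Hdac8) work mostly in the nucleus, the first 3 of them as the catalytic subunits of corepressor complexes. Class IIa proteins, among them Hdac4, Hdac5 and Hdac7, have little deacetylase activity of their own, bind MEF2 transcription factors and leave the nucleus when they are phosphorylated and held by scaffold proteins of the Ywha family. Class IIb holds Hdac6, a cytoplasmic deacetylase of tubulin, and Hdac10, a polyamine deacetylase. Hdac11 alone makes up class IV and removes fatty acyl groups from lysines. In red cell formation these enzymes are known for their place in corepressor complexes that GATA1 recruits and for the condensation of chromatin before the nucleus is expelled, a step for which Hdac2 is known to be needed in mouse fetal erythroblasts.

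The 10 genes Hdac1, Hdac2, Hdac3, Hdac4, Hdac5, Hdac6, Hdac7, Hdac8, Hdac10 and Hdac11 were taken by name from the 19840 gene names measured. The study profiled mRNA of erythroid cells from fetal liver of C57BL/6 mouse embryos at day E13.5 to E14.5, with 1 library for each of 9 conditions. The 3 fresh populations were BFU-E, the early progenitor that forms erythroid bursts in culture, CFU-E, the later progenitor that forms small erythroid colonies, and Ter119+ erythroblasts, which carry Ter119 and lack Kit. BFU-E were the 10% lowest in CD71, the transferrin receptor, and CFU-E the 20% highest, both within Kit-positive cells that lack lineage markers, CD34 and CD41. The 6 cultured libraries came from BFU-E gated by low CD71 (CD71 sort) or by low CD71 together with low CD24a (CD71/CD24a sort). All cultured cells spent 4 h in serum-free medium with stem cell factor (100 ng/mL), IGF-1 (40 ng/mL) and erythropoietin (2 U/mL), and a further 4 h with the agents. The CD71 sort was divided between water and 100 nM dexamethasone (Dex, a synthetic glucocorticoid). The CD71/CD24a sort was divided between water, Dex, 333 µM DMOG (dimethyloxalylglycine, an inhibitor of the enzymes whose hydroxylation of HIF alpha subunits leads to their breakdown) and both agents. The labels do not say how many embryos or litters gave the cells. A surface gate enriches for a progenitor and does not isolate a single cell type.

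Levels are normalised RPKM, the authors' read density per kilobase of transcript and per M reads (M, mega) divided by 1 scaling factor per library, so that levels of different genes can be compared. The factor was 0.419 for Ter119+ cells, where globin made up 39.1% of the summed RPKM, and 1.02 to 1.18 for the other 8 libraries. Depth, recovered from the steps between low values, was 11.85 to 52.75 M reads a library, and a histone deacetylase gene had from about 14.5 to 11073 reads in a library. Erythroid markers summed to 300.1 normalised RPKM in BFU-E, 673 in CFU-E and 29427 in Ter119+ cells, and progenitor markers (Kit, Gata2, Cd34 and Myb) to 491, 150.1 and 6.997. The Ter119+ library also held 11 of 11 neutrophil markers at 1 or more, with a sum of 213, and 6 of 8 macrophage markers, with a sum of 32.0. Fresh BFU-E held 3 of 11 neutrophil markers at that level (sum 99.8) and CFU-E 2 of 11 (sum 5.02). Of 5 mast cell markers 0 reached 1 in any library. Hepatocyte markers summed to 24.2 in BFU-E, 8.83 in CFU-E and 18.9 in Ter119+ cells. The lymphoid markers summed to 9.30 in BFU-E, where Cd79b stood at 8.14, to 1.03 in CFU-E and to 10.2 in Ter119+ cells, where Lck stood at 9.28, with Cd3e and Cd2 at 0 in all 9 libraries.

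Promoter windows are shown first for Hdac7, which had the widest range of levels, and for 3 genes that were higher in Ter119+ cells than in CFU-E, since these 4 genes are followed below. Windows run from 250 bases before to 50 bases after an annotated start, come from RefSeq on GRCm38.p6, and were given for 7 of the 10 genes. Capitals mark letters of the motifs searched on both strands, with positions counted from the annotated start, which is 0. Hdac7 has 4 windows, and those shown are at the start of the transcript that was measured and at the next start, 272 bases away. Hdac5, Hdac6 and Hdac11 follow.
Hdac7 (chr15:97831718-97832017, minus strand): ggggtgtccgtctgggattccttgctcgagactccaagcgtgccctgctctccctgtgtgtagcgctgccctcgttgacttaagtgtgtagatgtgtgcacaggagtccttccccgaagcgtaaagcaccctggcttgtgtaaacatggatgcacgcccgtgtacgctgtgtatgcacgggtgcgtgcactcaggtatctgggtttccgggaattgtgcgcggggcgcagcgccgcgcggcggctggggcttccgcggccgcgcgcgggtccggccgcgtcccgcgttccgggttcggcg
Hdac7 (chr15:97831446-97831745, minus strand): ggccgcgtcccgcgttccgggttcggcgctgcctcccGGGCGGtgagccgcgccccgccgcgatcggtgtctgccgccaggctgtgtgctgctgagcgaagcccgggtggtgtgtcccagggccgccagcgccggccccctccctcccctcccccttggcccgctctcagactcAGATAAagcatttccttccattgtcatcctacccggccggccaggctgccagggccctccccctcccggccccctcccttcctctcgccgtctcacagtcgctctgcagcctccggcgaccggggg
Hdac5 (chr11:102230123-102230422, minus strand): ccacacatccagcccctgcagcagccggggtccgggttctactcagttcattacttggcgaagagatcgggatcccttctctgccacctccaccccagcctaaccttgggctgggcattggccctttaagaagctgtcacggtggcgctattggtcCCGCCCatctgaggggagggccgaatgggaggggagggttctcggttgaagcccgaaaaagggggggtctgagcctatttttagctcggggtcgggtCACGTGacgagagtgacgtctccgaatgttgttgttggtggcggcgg
Hdac6 (chrX:7947840-7948139, minus strand): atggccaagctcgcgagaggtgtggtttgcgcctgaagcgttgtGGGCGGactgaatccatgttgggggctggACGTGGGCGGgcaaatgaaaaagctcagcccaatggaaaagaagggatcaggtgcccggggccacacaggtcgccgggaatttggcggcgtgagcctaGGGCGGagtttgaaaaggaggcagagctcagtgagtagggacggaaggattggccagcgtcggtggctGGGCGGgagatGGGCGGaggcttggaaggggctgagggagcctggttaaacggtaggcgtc
Hdac11 (chr6:91156565-91156864, plus strand): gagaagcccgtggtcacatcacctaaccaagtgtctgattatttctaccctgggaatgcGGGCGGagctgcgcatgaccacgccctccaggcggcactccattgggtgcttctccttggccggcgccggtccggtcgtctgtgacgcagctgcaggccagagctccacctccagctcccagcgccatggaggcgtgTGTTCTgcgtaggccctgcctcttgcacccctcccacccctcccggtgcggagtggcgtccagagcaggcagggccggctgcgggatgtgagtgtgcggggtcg

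The window at the start of the measured Hdac7 transcript held none of the motifs. The neighbouring Hdac7 window held AGATAA, letters bound by GATA factors, at -76, and GGGCGG, the GC box, at -213. In the Hdac5 window CACGTG, which contains the hypoxia response core ACGTG on both strands, began at 3 and a GC box lay at -94. The Hdac6 window held ACGTG at -177, sharing 1 base with a GC box, and 5 GC boxes in all. The Hdac11 window lies at an annotated start 150 bases from that of the measured transcript. It held AGAACA, the half-site of the glucocorticoid response element, on the reverse strand at -54 and a GC box at -191. Over all 32851 windows, AGATAA stood in 11.2%, ACGTG in 19.6%, AGAACA in 19.0% and GGGCGG in 35.7%. TGATAA (9.05% of windows), CCACACCC (3.56%) and CCGGAAG (8.86%) were in none of the windows of the 7 genes. These matches describe the letters of the windows and show no binding.

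Hdac7 was the leading histone deacetylase transcript of fresh BFU-E and CFU-E, and Hdac11 that of Ter119+ cells. The 10 genes summed to 291 normalised RPKM in BFU-E, 182 in CFU-E and 141 in Ter119+ cells. Hdac7 alone made up 46.3% of that sum in BFU-E, 26.5% in CFU-E and 0.935% in Ter119+ cells. Hdac11 went the other way, from 1.42% to 4.37% and 27.6%. Shares within a library do not depend on the scaling factors, but fewer cells of a type and less RNA per cell cannot be told apart. Without Hdac7 the other 9 genes summed to between 133 and 157 normalised RPKM in the 9 libraries, a range that rests on the factors: with RPKM as deposited their sum was 58.6 in Ter119+ cells, 165 in BFU-E and 145 in CFU-E.

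**Figure D1:**
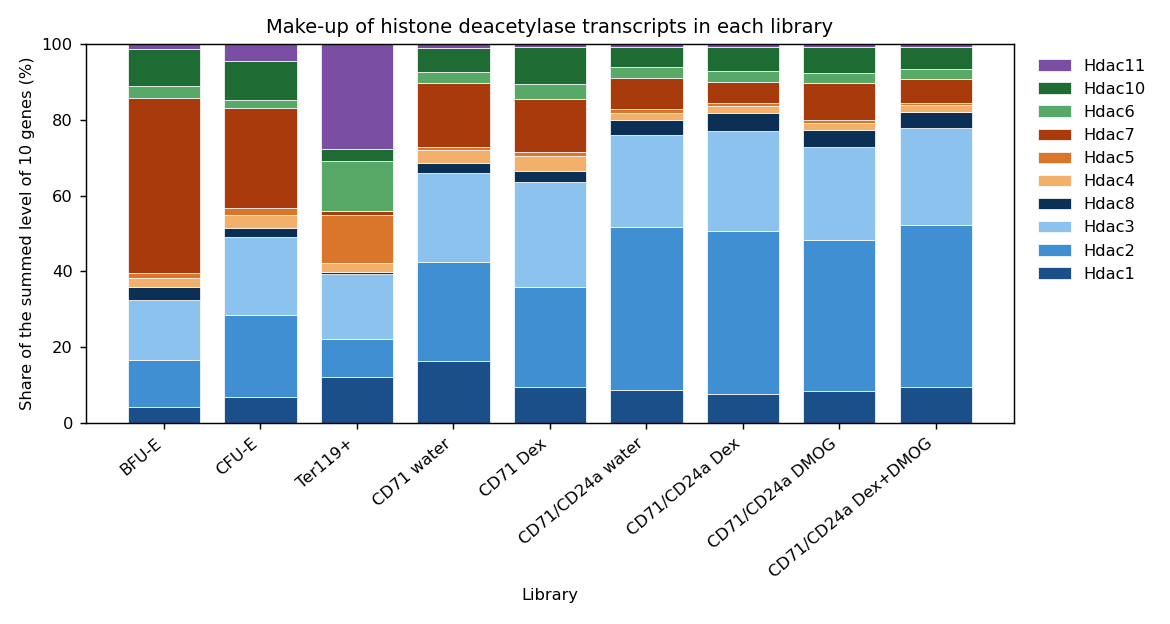
Stacked bars give each gene's share (%) of the summed level of the 10 histone deacetylase genes in each of 9 libraries. Hdac7 goes from 46.3% in BFU-E to 0.935% in Ter119+ cells, where Hdac11 reaches 27.6%, and the 4 class I genes hold 66.4% to 82.2% in the cultured libraries.

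In each of the 6 cultured libraries the class I genes Hdac2 and Hdac3 had the 2 highest levels of the 10. Hdac3, the catalytic subunit of the NCoR and SMRT complexes, was at 46.8 in BFU-E, 37.6 in CFU-E and 23.9 in Ter119+ cells. Its 6 cultured values lay between 40.3 and 43.0, a 1.07-fold span and the narrowest of the 10 genes there. Hdac2, a catalytic subunit of the Sin3, NuRD and CoREST complexes, was at 35.7, 39.2 and 14.1 in the fresh libraries in that order. In culture Hdac2 stood at 46.8 (water) and 40.5 (Dex) in the CD71 sort and at 72.2 (water), 70.4 (Dex), 67.4 (DMOG) and 70.8 (both agents) in the CD71/CD24a sort. Hdac2 was thus lowest in erythroblasts and highest in the 4 CD71/CD24a cultures.

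Hdac1, the close paralog of Hdac2 in the same complexes, was at 12.5 in BFU-E, 12.7 in CFU-E and 17.3 in Ter119+ cells. Its cultured values were 29.3 (water) and 14.9 (Dex) in the CD71 sort and 14.5, 12.7, 14.1 and 15.7 (water, Dex, DMOG and both) in the CD71/CD24a sort. The CD71 sort water library stood apart from the other 8, which lay between 12.5 and 17.3. Hdac1 levels are uncertain, since 38.6% of its 32-base words also occur in other genes or pseudogenes, most of them (33.0%) in the pseudogene Gm10093, and how the authors counted such reads is not known here. The ratio of Hdac2 to Hdac1 within a library was 2.85 for BFU-E, 3.10 for CFU-E and 0.815 for Ter119+ cells. Hdac8, which acts outside those complexes and deacetylates the cohesin subunit SMC3, was at 9.30, 4.48 and 1.03 in the fresh libraries and between 4.28 and 8.06 in culture.

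Among class IIa genes, Hdac7 had the widest range of the 10. It stood at 135 in BFU-E, 48.3 in CFU-E and 1.32 in Ter119+ cells. In culture it was at 29.9 (water) and 21.9 (Dex) in the CD71 sort and at 13.7 (water), 9.33 (Dex), 16.3 (DMOG) and 10.2 (both agents) in the CD71/CD24a sort. Every cultured library was below both fresh progenitors and above erythroblasts. Hdac5 was at 3.74, 3.26 and 18.1 in the fresh libraries and between 1.04 and 1.62 in culture. Hdac7 was 36.1 times Hdac5 in fresh BFU-E and 14.8 times in CFU-E, whereas in Ter119+ cells Hdac5 was 13.7 times Hdac7. Hdac4 was at 7.30, 6.28 and 3.08 in the fresh libraries, at 6.15 and 6.48 in the CD71 sort and between 2.85 and 3.34 in the CD71/CD24a sort. Without strand, reads of Hdac4 cannot be told from those of Gm26720, a gene on the opposite strand that overlaps 22.4% of its exon bases.

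Class IIb and class IV genes also had their highest levels in different populations. Hdac10 was at 28.0, 19.1 and 4.53 in the fresh libraries and between 8.89 and 15.2 in culture. Hdac6 was at 9.02, 3.50 and 18.8, lowest in CFU-E, and between 4.31 and 5.84 in culture. Hdac11 was at 4.13, 7.97 and 38.9, and between 1.23 and 1.75 in culture. So Hdac5, Hdac6 and Hdac11 had their highest normalised level in erythroblasts, and Hdac3, Hdac4, Hdac7, Hdac8 and Hdac10 in fresh BFU-E. With RPKM as deposited, Hdac6 was higher in BFU-E than in erythroblasts. Hdac3 as deposited was highest in the CD71/CD24a Dex culture, at 49.99 against 49.42 in fresh BFU-E. The overlap of Hdac11 exons with Gm44002 on the opposite strand was 15.4% of its exon bases.

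**Figure D2:**
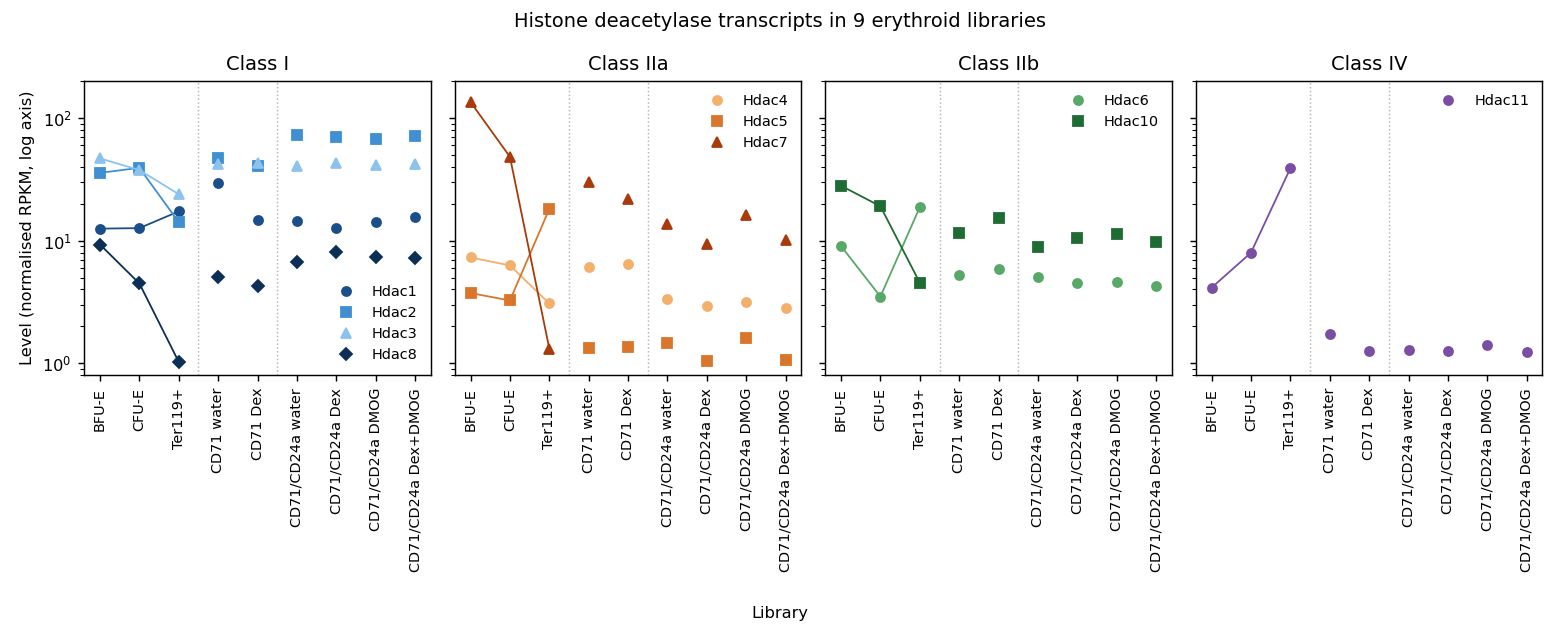
Points give the level (normalised RPKM, log axis) of each of the 10 genes in each of 9 libraries, by class, and lines join the 3 fresh populations. Hdac7 goes from 135 to 1.32 across the fresh populations while Hdac11 goes from 4.13 to 38.9, and Hdac3 stays between 40.3 and 43.0 in culture.

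The order of the genes by level changed with stage. In BFU-E it was Hdac7, Hdac3, Hdac2, Hdac10, Hdac1, Hdac8, Hdac6, Hdac4, Hdac11 and Hdac5. In CFU-E Hdac7 still led and was followed by Hdac2, Hdac3 and Hdac10. In Ter119+ cells the order was Hdac11, Hdac3, Hdac6, Hdac5, Hdac1, Hdac2, Hdac10, Hdac4, Hdac7 and Hdac8. Neighbours whose ratio could not be told from 1 by exact 95% intervals of counting error were Hdac8 and Hdac6, and Hdac11 and Hdac5, in BFU-E. In CFU-E they were Hdac2 and Hdac3, and Hdac6 and Hdac5. In Ter119+ cells they were Hdac6 and Hdac5, Hdac5 and Hdac1, and Hdac7 and Hdac8. Hdac5 and Hdac11, the lowest of the 10 in culture, could not be told apart in any of the 6 cultured libraries. Such intervals hold no more than counting error, because reads can be PCR copies of 1 molecule and no condition has a replicate.

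From BFU-E to CFU-E, 2 of the 10 genes were lower by at least 2-fold and 0 were higher. Differences are in log2(normalised RPKM + 1), which understates low genes, and the 2-fold rule stands in for a test because each population is 1 library. Of 9947 genes compared, 12.3% were lower and 3.32% higher by this rule (15.6% in either direction). Hdac7 was 2.80-fold lower in CFU-E (95% counting interval 2.71 to 2.89, log2 difference -1.46) and Hdac6 was 2.58-fold lower (2.27 to 2.93, log2 difference -1.15). Hdac11 was 1.93-fold higher (1.64 to 2.27), short of the rule at 0.81 on the log2 scale. Hdac8 was 2.08-fold lower as a ratio of levels (1.75 to 2.47) but -0.91 on the log2 scale. The median over the 10 genes was -0.25 and that over all genes -0.08. Neutrophil, megakaryocyte and endothelial marker sums moved in the same direction as Hdac7 and Hdac6, from 99.8 to 5.02, from 82.9 to 11.8 and from 41.8 to 23.4. Mpo (71.5 and 2.09) and Prtn3 (24.6 and 1.23) made up most of the neutrophil sums, while S100a9 (0.105 and 0.554) rose. Eng alone gave 29.7 and 23.1 of the endothelial sums. The part of these markers in these differences was not tested.

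From CFU-E to Ter119+ cells, 3 genes were higher and 4 lower by at least 2-fold. The background was 22.6% higher and 28.8% lower of 9530 genes (51.4% in either direction). Hdac5 was 5.56-fold higher in Ter119+ cells (4.82 to 6.42), Hdac6 5.36-fold (4.69 to 6.13) and Hdac11 4.88-fold (4.36 to 5.46). Hdac7 was 36.6-fold lower (26.9 to 51.0), Hdac8 4.36-fold (2.55 to 8.11), Hdac10 4.20-fold (3.35 to 5.34) and Hdac2 2.78-fold (2.40 to 3.22). The median over the 10 genes was -0.74 against -0.21 over all genes.

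This step depends on the scaling. Taking RPKM as deposited shifted the median of all genes by -1.20 and scaling to the sum without globin by -0.90. With RPKM as deposited, Hdac5, Hdac6 and Hdac11 stayed above 0 at 0.92, 0.88 and 0.84 on the log2(RPKM + 1) scale, short of the rule, with ratios of 2.15, 2.07 and 1.88, and 6 genes were lower by 2-fold. Hdac1 changed side, from 0.43 to -0.83, and to -0.51 with the sum without globin. Hdac7 was lower under each scaling, at -4.41, -5.10 and -4.97. In the same pair of libraries neutrophil markers went from 5.02 to 213, macrophage markers from 0.780 to 32.0, megakaryocyte markers from 11.8 to 87.3 and lymphoid markers from 1.03 to 10.2, in the direction of Hdac5, Hdac6 and Hdac11. The endothelial sum went from 23.4 to 3.17, in the direction of Hdac7. Eng, at 23.1 and 1.55, made most of that fall, while Cdh5 (0.0775 to 0.854) and Kdr (0.0284 to 0.600) of the same list rose. The part of all these markers in these differences was not tested.

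**Figure D3:**
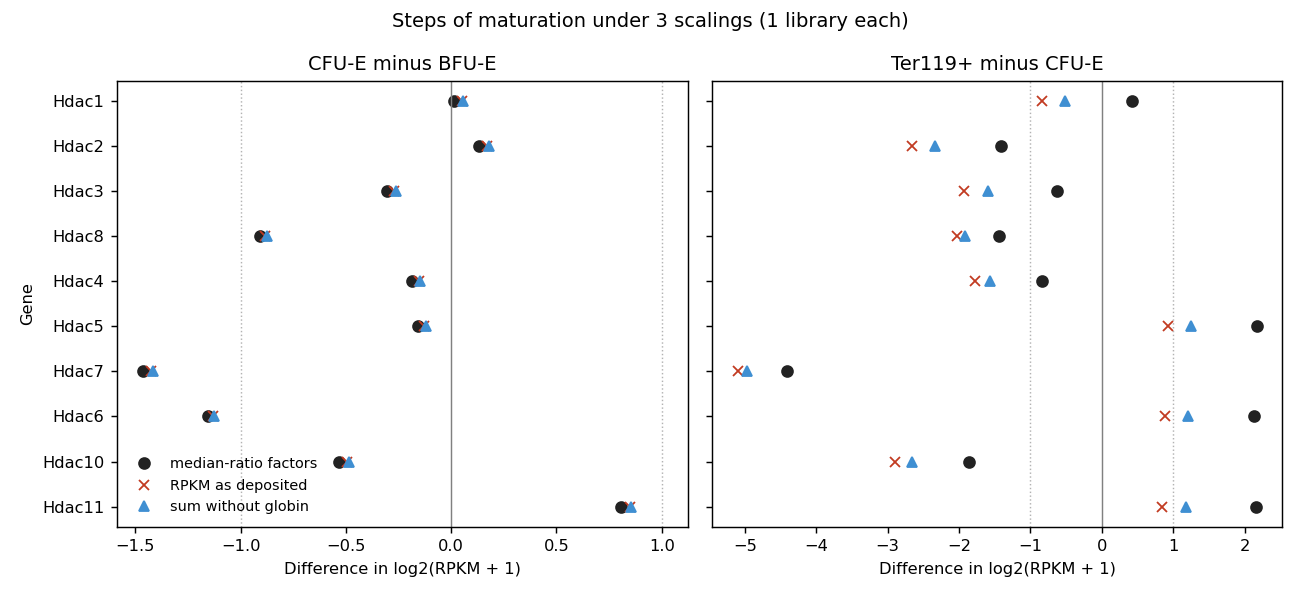
Points give the difference in log2(RPKM + 1) between fresh libraries for each gene under median-ratio factors (circles), RPKM as deposited (crosses) and scaling to the sum without globin (triangles), with dotted lines at 2-fold. At the second step Hdac5, Hdac6 and Hdac11 lie above 0 and Hdac7 below -4 under each scaling, while Hdac1 changes side.

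Across both steps, from BFU-E to Ter119+ cells, 2 genes were higher and 5 lower by at least 2-fold, against 21.2% higher and 35.8% lower of 10249 genes (57% in either direction). Hdac7 was 102-fold lower (75.3 to 143). Hdac10 was 6.18-fold lower, Hdac8 9.06-fold, Hdac2 2.53-fold and Hdac4 2.37-fold. Hdac11 was 9.41-fold higher (8.07 to 11.01) and Hdac5 4.84-fold (4.17 to 5.63). With RPKM as deposited these ratios were 3.73 and 1.92, Hdac5 did not reach the rule at 0.80 on the log2 scale, and the counts became 1 higher and 6 lower, where 8.97% of all genes were higher and 62% lower. Hdac6 was 2.08-fold higher (1.86 to 2.33), 0.98 on the log2 scale, and changed side to -0.25 with RPKM as deposited. Hdac1 changed side too, from 0.44 to -0.79. In the same libraries 7 of 37 corepressor subunits were higher and 10 lower, 3 and 1 of 11 acetyltransferases, 2 and 2 of 6 sirtuins, and 2 and 10 of 16 partners of class IIa proteins. With RPKM as deposited these counts were 2 and 22, 0 and 7, 0 and 4, and 0 and 14.

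Genes that work with histone deacetylases did not share 1 direction at the second step. Of 35 corepressor subunits, 8 were higher and 6 lower by 2-fold in Ter119+ cells than in CFU-E. Dnttip1, a subunit of the mitotic deacetylase complex with Hdac1 and Hdac2, was higher by 3.02 on the log2 scale (1.66 with RPKM as deposited). Gps2, a subunit of the Hdac3 complexes, was higher by 1.93 (0.56 as deposited). Tbl1x and Tbl1xr1, also of the Hdac3 complexes, were at -2.36 and -1.78. Of 11 acetyltransferases, the enzymes that act against deacetylases, 2 were higher (Ep300 at 1.40 and Crebbp at 1.14, which changed side to -0.16 with RPKM as deposited) and 1 lower (Kat2a at -3.61). Of 6 sirtuins, the NAD-dependent deacetylases, Sirt1 (1.46) and Sirt7 (1.32) were higher and Sirt5 (-1.91) lower. With RPKM as deposited the counts were 1 higher and 18 lower for 36 corepressor subunits, 0 and 5 for acetyltransferases, and 0 and 4 for sirtuins, where 8.46% of all genes were higher and 60.3% lower. With the factors 22.6% of all genes were higher and 28.8% lower.

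Some partners of class IIa proteins were lower, as Hdac7 was, at the steps between fresh populations. From BFU-E to CFU-E their count was near the share of all genes. Between the sorts, where Hdac7 also fell, 5 of 16 rose and 2 fell. Of 17 such genes (MEF2 factors, Ywha scaffolds and kinases), 9 were lower and 2 higher in Ter119+ cells than in CFU-E (28.8% and 22.6% of all genes), with a median of -1.07 against -0.21 over all genes. The kinase gene Sik2 was at 2.26, the scaffold gene Ywhag at -2.14, the kinase gene Prkd3 at -1.99 and the MEF2 gene Mef2d at -1.84. With RPKM as deposited 12 were lower and 0 higher, with a median of -1.78 against -1.30 over all genes. From BFU-E to CFU-E 3 of 17 were lower and 0 higher (12.3% and 3.32% of all genes), and Mef2c, a MEF2 factor bound by Hdac7, led them at -2.46. Mef2c was at 14.3 in BFU-E, 1.78 in CFU-E and 0.224 in Ter119+ cells. The kinase genes Camk1 (-1.31) and Sik3 (-1.24) were the other two. At that step 3 of 37 corepressor subunits (Rcor2 at -1.98, Trerf1 at -1.76 and Phf21a at -1.16), 0 of 11 acetyltransferases and 0 of 6 sirtuins were lower. No gene of the 4 lists was higher by the rule, but with RPKM as deposited the kinase gene Prkd1 reached it at 1.02.

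Cultured BFU-E had less Hdac7 than fresh BFU-E. Between fresh BFU-E and the CD71 sort water culture, taken by the same gate, 1 gene was higher (Hdac1, 2.34-fold, 2.08 to 2.63) and 3 were lower by the rule, against 6.27% higher and 9.06% lower of 10060 genes (15.3% in either direction). Hdac7 was 4.52-fold lower (4.28 to 4.77), Hdac10 2.41-fold (2.14 to 2.73) and Hdac5 2.79-fold (2.10 to 3.74). The median over the 10 genes was -0.73 and that over all genes -0.08. In the CD71/CD24a water culture, Hdac7 was 9.86-fold below fresh BFU-E (9.30 to 10.5) and Hdac2 2.02-fold above (1.90 to 2.16), where the gate differed too. Of the lists, 0 of 37 corepressor subunits were higher and 2 lower (Chd3 and Trerf1) in the CD71 water culture, 1 and 0 of 11 acetyltransferases (Hat1), 0 and 1 of 6 sirtuins (Sirt5), and 1 and 2 of 16 partners of class IIa proteins (Ywhaq, then Prkd2 and Camk1). The neutrophil marker sum was 99.8 in fresh BFU-E, 27.6 in the CD71 water culture and 6.48 in the CD71/CD24a water culture. Mpo (71.5, 13.4 and 4.51) and Prtn3 (24.6, 9.74 and 1.33) made up most of it. Among the rest, S100a9 (0.105 and 1.18) and Ms4a3 (0.404 and 0.812) were higher in the CD71 water culture than in fresh BFU-E. The endothelial sum was 41.8, 13.5 and 9.77 (Eng alone 29.7, 10.5 and 3.87), and the hepatocyte sum 24.2, 2.88 and 10.3. The part of these markers in the Hdac7 difference was not tested.

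The Dex comparison asks which transcripts respond to a glucocorticoid in cultured BFU-E, within 3 pairs of arms that each share their cells. The CD71/CD24a sort was divided into 2 of these pairs, so the 3 pairs stand for 2 sorts and are not independent of each other. Hdac7 was lower with Dex in 3 of 3 pairs, with 29.9 and 21.9 (water, Dex) in the CD71 sort, 13.7 and 9.33 in the CD71/CD24a sort, and 16.3 and 10.2 (DMOG, both agents) there. Across the sorts the values with and without Dex overlapped. Hdac7 fell by 0.52 on the log2 scale (SE 0.075, limma adjusted p = 0.0276), and its level was 1.37-fold to 1.60-fold lower within the pairs. It was the only one of the 10 genes past the threshold of 0.05, beside 0.629% lower and 1.39% higher of 9535 genes (2.02% in either direction). The p-values measure the spread between these libraries, with 2 residual degrees of freedom.

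The Hdac7 call was lost without either library of the CD71/CD24a pair that had no DMOG. Leaving out its water library gave an adjusted p (limma) of 0.112 and leaving out its Dex library 0.121, and over all 6 single omissions the estimate ran from -0.57 to -0.47. The call was also lost with no filter on low genes (adjusted p = 0.139, limma) and without the culture pair in the model (adjusted p = 0.999968, limma), and it held in 13 of 17 settings, over which the adjusted p (limma) ran from 0.000272 to 0.999968. In a model with a separate Dex effect for each sort, added after the data were seen, the Hdac7 estimate was -0.43 in the CD71 sort and -0.57 in the CD71/CD24a sort (adjusted p = 0.000508, limma). The CD71 arm is 1 library against 1, which this model fits exactly. Its 1 residual degree of freedom comes from the CD71/CD24a libraries, and the CD71 libraries are assumed to vary like them. Within the pairs the erythroid marker sum was lower with Dex along with Hdac7, at 464 and 409 (without and with Dex) in the CD71 pair, 364 and 286 in the CD71/CD24a pair, and 367 and 289 with DMOG, and its part in the result was not tested. The neutrophil marker sum was 27.6 and 26.9, 6.48 and 6.26, and 5.69 and 5.47. The endothelial sum was 13.5 and 21.3 in the CD71 pair, opposite in direction to Hdac7, and 9.67 to 10.6 in the other 4 libraries. Eng, at 10.5 and 18.6, made up most of the endothelial sums of the CD71 pair.

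**Figure D4:**
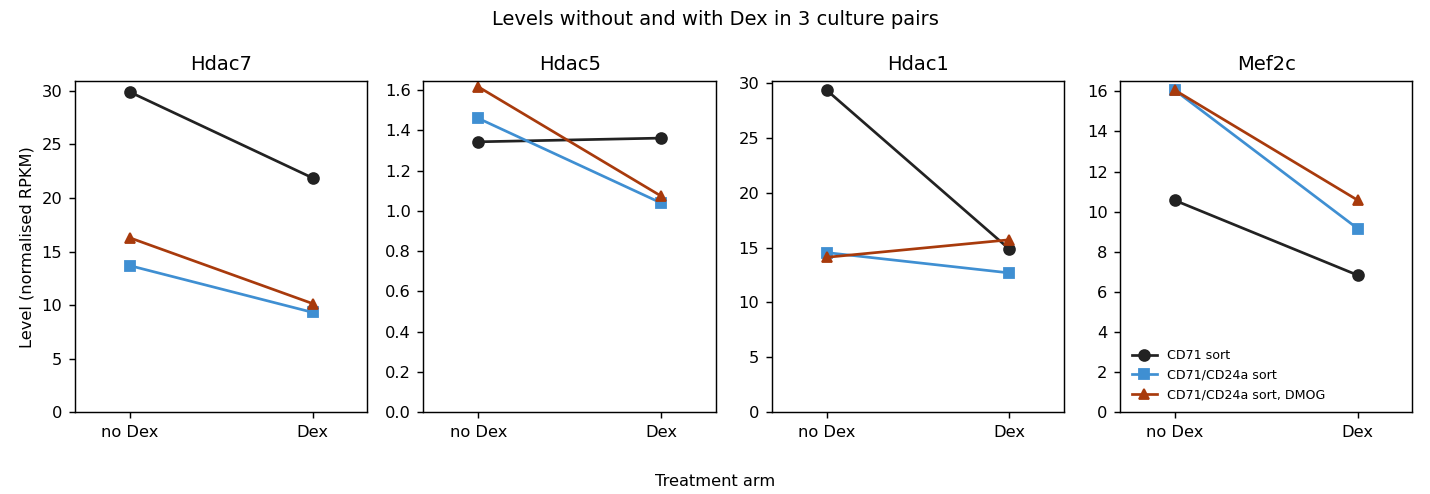
Lines join the level (normalised RPKM) without and with Dex in each of 3 culture pairs, for Hdac7, Hdac5, Hdac1 and the MEF2 factor Mef2c. Hdac7 and Mef2c are lower with Dex in 3 of 3 pairs, while Hdac1 is at 29.3 and 14.9 in the CD71 sort and between 12.7 and 15.7 in the other pairs.

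The other 9 genes did not pass the test for Dex. Hdac5 was at 1.34 and 1.36 (water, Dex) in the CD71 sort, 1.46 and 1.04 in the CD71/CD24a sort and 1.62 and 1.07 with DMOG, a difference of -0.20 (-0.46 to 0.07, limma adjusted p = 0.417). Hdac11 was lower with Dex in 3 of 3 pairs, at -0.13 (-0.38 to 0.11, limma adjusted p = 0.550). Hdac3 was higher in 3 of 3 pairs by 0.05 (-0.10 to 0.21, limma adjusted p = 0.729). For Hdac2 the interval was -0.24 to 0.13, for Hdac4 -0.27 to 0.15, for Hdac6 -0.24 to 0.19, for Hdac8 -0.24 to 0.25 and for Hdac10 -0.15 to 0.41. Over the 10 genes the median was -0.06, and over all genes -0.02.

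Hdac1 had unlike values in the CD71 pair and the other pairs. It was at 29.3 with water and 14.9 with Dex in the CD71 sort, and the CD71/CD24a values with and without Dex lay between 12.7 and 15.7. With 1 Dex effect for both sorts the difference was -0.32 (-0.79 to 0.14, limma adjusted p = 0.446). With separate effects it was -0.93 in the CD71 sort, where 12.7% of genes passed, 7.64% lower and 5.09% higher. The difference between the sorts was 0.92 (SE 0.15, limma adjusted p = 0.00474), where 6.03% of genes passed, 3.48% with a higher and 2.55% with a lower value in the CD71/CD24a sort. Both the CD71 value and the difference take their spread from the CD71/CD24a libraries alone, with 1 residual degree of freedom, so that the p does not measure how CD71 libraries vary. The CD71 arm has 1 water library, the one that stands apart from the other 8, and the doubt about sequence shared with pseudogenes applies here.

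Of the 4 lists of related genes, the partners of class IIa proteins held the calls for Dex, 1 higher and 1 lower of 16 tested. Mef2c was at 10.6 and 6.84 (water, Dex) in the CD71 sort, at 16.0 and 9.16 in the CD71/CD24a sort and at 16.0 and 10.6 with DMOG. It fell by 0.62 (SE 0.078, limma adjusted p = 0.0162), and like Hdac7 lost the call without the CD71/CD24a water (adjusted p = 0.0848, limma) or Dex library (adjusted p = 0.0926, limma). Ywhah, a scaffold gene of the family that holds class IIa proteins in the cytoplasm, rose by 0.74 (SE 0.084, limma adjusted p = 0.0119), with 42.6 and 62.8 (without and with Dex), 52.7 and 97.8, and 48.4 and 84.2. The Mef2c and Ywhah calls were also lost with no filter and without the pair in the model. In corepressor subunits 0 of 36 passed, in acetyltransferases 0 of 11 and in sirtuins 0 of 6 by limma.

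For DMOG 0 of the 10 histone deacetylase genes passed the threshold, where 0.021% of 9535 genes (2) passed and 347 had an unadjusted p under 0.05 by limma. The comparison has 2 pairs, within the CD71/CD24a sort, and 0 genes of the 4 lists passed. Hdac7 was at 13.7 and 16.3 (water, DMOG) and at 9.33 and 10.2 (Dex, both agents), a difference of 0.17 (-0.05 to 0.39, limma adjusted p = 0.999). The intervals of the other 9 genes were widest for Hdac1 (-0.45 to 0.69) and narrowest for Hdac3 (-0.19 to 0.19). The largest difference after that of Hdac7 was 0.12 for Hdac1. A p above the threshold does not show that DMOG left these transcripts as they were. Hdac5, whose window carries CACGTG, was at 1.46 and 1.62 (water, DMOG) and at 1.04 and 1.07 with Dex, a difference of 0.06 (-0.27 to 0.38).

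The term for Dex and DMOG together, which asks whether the 2 agents act otherwise than by the sum of their separate effects, passed for 0 of the 10 genes. It passed for 0% of 9535 genes by limma, with 275 at an unadjusted p under 0.05, and no other tool was run. Hdac1 had the largest value at 0.70 (0.12 to 1.29, limma adjusted p = 0.999) and Hdac10 the lowest at -0.48 (-0.92 to -0.03, limma adjusted p = 0.999). For Hdac7 it was -0.16 (-0.59 to 0.27). The term also draws on the CD71 pair, which has no DMOG arm. Within the CD71/CD24a sort alone the same quantity, with no test, was 0.33 for Hdac1, -0.41 for Hdac10 and -0.12 for Hdac7. In the 4 lists 0 genes passed. This model leaves 1 residual degree of freedom.

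More genes passed between the 2 sorts than for any agent. The arms of a sort share its cells, so the libraries of a sort are not replicates of it. The p-values here rest on the spread within the sorts and do not measure how separate sorts of the same gate would vary. In the CD71/CD24a sort 2 genes rose and 3 fell against the CD71 sort, beside 29.1% higher and 25% lower of all genes (54.2% in either direction). Hdac7 fell by 1.11 (SE 0.092, limma adjusted p = 0.00128), Hdac4 by 0.82 (SE 0.11, limma adjusted p = 0.00245) and Hdac10 by 0.42 (SE 0.14, limma adjusted p = 0.0447). Hdac2 rose by 0.70 (SE 0.095, limma adjusted p = 0.00275) and Hdac8 by 0.57 (SE 0.12, limma adjusted p = 0.0105). For these 5 genes the water and Dex values of the CD71/CD24a sort did not overlap those of the CD71 sort. The same held for Hdac1 and Hdac6, which did not pass, so the lack of overlap does not set the called genes apart. The share of all genes without overlap was not counted. Hdac1 was at -0.59 (limma adjusted p = 0.0749), and Hdac3 at -0.03 (-0.22 to 0.17).

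The Hdac10 call held in 10 of 15 settings, with estimates from -0.59 to -0.25 over single omissions and an adjusted p (limma) of up to 0.221. It was lost without CD71 Dex, CD71/CD24a water or CD71/CD24a Dex, with no filter, and with RPKM as deposited, where the median of all genes moved from 0.04 to 0.19 and the share of calls that were higher from 53.8% to 73.0%. Hdac7, Hdac4 and Hdac2 passed in every setting in which they were tested, and Hdac8 in 14 of 15. The median over the 10 genes was -0.16. Whether the sorts were made on different days is not stated, so the gate and any difference in day cannot be told apart. The neutrophil marker sum was 26.9 to 27.6 in the CD71 sort and 5.47 to 6.48 in the CD71/CD24a sort, and the endothelial sum 13.5 to 21.3 and 9.67 to 10.6. The hepatocyte marker sum was higher in the CD71/CD24a sort, at 9.37 to 12.1 against 2.88 to 4.63. The part of these markers in these differences was not tested.

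**Figure D5:**
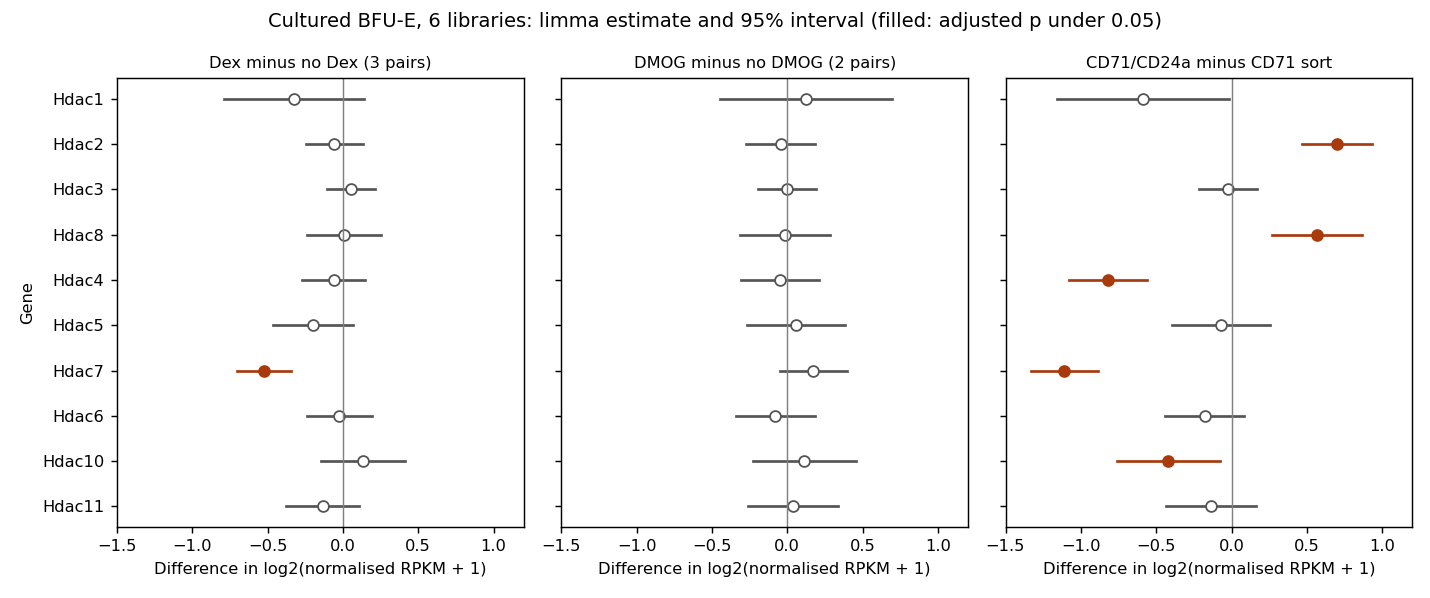
Points and bars give the limma estimate and 95% interval of the difference in log2(normalised RPKM + 1) for each gene in the 6 cultured libraries, for Dex, DMOG and the sort, filled where the adjusted p is under 0.05. Hdac7 is the single filled point for Dex at -0.52, DMOG has none, and 5 genes are filled for the sort.

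Partner lists had calls in both directions between the sorts, where 29.1% of all genes were higher and 25% lower. These p-values, too, do not measure how separate sorts would vary. Of 36 corepressor subunits 8 rose and 8 fell in the CD71/CD24a sort, and Arid4b, a subunit of the Sin3 complex, rose by 0.99 (limma adjusted p = 0.00205). Of 11 acetyltransferases 2 rose and 5 fell, and Crebbp, a histone acetyltransferase and coactivator, fell by 0.90 (limma adjusted p = 0.00179). Of 6 sirtuins 1 rose and 3 fell. Of 16 partners of class IIa proteins 5 rose and 2 fell, with the scaffold gene Ywhaz at 0.92 (limma adjusted p = 0.00325). Mef2c rose by 0.47 (limma adjusted p = 0.00839), while Hdac7 fell.

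Genes with the profile most like that of a histone deacetylase gene were sought over the 9 libraries among 9697 genes, by Pearson's r on the log2 scale. For Hdac7 they were Ankrd24 (0.993), the record NM_001013392 (0.990) and Gatm (0.990), an enzyme of creatine synthesis. For Hdac11 they were Rnf167 (0.999), Mylpf (0.994) and Sowaha (0.993), and for Hdac5 Tmem59 (0.997), Chkb (0.995) and Tmem131l (0.995). For Hdac11 and Hdac5 the Ter119+ library lies apart from the other 8, and libraries of a sort share their cells. Hdac6 was added here after its values were seen, and the second gene most like it was Ctsg, a neutrophil granule protease on the marker list (0.986), with Rgl1 first (0.987). Ctsg ranged from 0.0385 to 7.88 normalised RPKM.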

How the data were processed

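Paired-end mRNA libraries of 300 bp bands, per the labels' protocols, were sequenced from 9 samples. The deposited values are RPKM, computed by the authors for 23041 RefSeq records a file. The submitters' processing notes name mm9 as the build, and the aligner, counting and use of strand are not given in the sources used here. In the 4 CD71/CD24a files an exact 1 stood where the other files have 0 and was read as 0. Symbols came from RefSeq (GRCm38.p6) for 22397 records and from GENCODE M21 for 114, and 530 had none. Of several records of a gene, the one with the highest mean was used. For Hdac5 and Hdac6, with 2 records each, these differed by at most 0.079% and 1.57%.

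Each library was divided by the median ratio over 6888 genes at 1 or more RPKM. Reads were recovered from steps between low values, 66.9% to 69.9% of which came out whole (within 0.1 reads, up to 10 reads) against 20% by chance, and gave exact Clopper-Pearson 95% intervals of ratios, which cover counting error only. A level of 3 reads on 1 kb was 0.0569 to 0.253 RPKM.

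Cultured libraries were tested with limma 3.58.1 (trend, pseudocount 1) over 9535 genes with a mean of at least 1, with sort, Dex and DMOG as terms, so that each culture pair is a block, and Benjamini-Hochberg adjustment over all genes. The pairing comes from the protocols, which divide the cells of a sort between its arms. The fit was also run on simulated libraries, drawn independently and with no difference between sorts. That run does not show how the p-values behave for libraries that share cells. Fresh libraries were compared by a fixed 2-fold rule. All 10 genes are named, with up to 4 genes of a list at each comparison, largest first. Alternatives were the pseudocount, the filter, the scaling, the records, the trend, the block and single omissions. The genes and lists were chosen with earlier results of these data known. Mideas and Sirt4 found no match by name. Separate cultures or animals behind the libraries are not stated.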

Additional observations from a re-analysis of the deposited data

Results flagged for a closer look

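The estimated effect of Dex on Hdac1 differed between the 2 sorts by 0.92 on the log2 scale (SE 0.15, limma adjusted p = 0.00474), by a term added after the data were seen. The CD71 side is 1 library against 1, and the 1 residual degree of freedom comes from the CD71/CD24a libraries alone, so that the p assumes that CD71 libraries vary like them. Hdac1 went from 29.3 normalised RPKM with water to 14.9 with Dex in the CD71 sort, a 1.97-fold decrease (1.74 to 2.23, counting error only). In the CD71/CD24a sort it went from 14.5 to 12.7, and with DMOG from 14.1 to 15.7. The term passed for 6.03% of all genes. The CD71 sort water library is the only one of the 9 above 17.3, and 38.6% of the 32-base words of Hdac1 also occur in other genes or pseudogenes. The part of that library's other properties, and of reads shared with pseudogenes, was not tested.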

How the results depend on the processing

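With no filter on low genes 0 of the 10 genes passed for Dex in place of 1, and without the replicate block, that is without the culture pair in the model, also 0. Single omissions gave 0 to 1 for Dex and 3 to 6 for the sort, where 3 came without the CD71/CD24a Dex library. Over all genes Dex called 193, but 21 with no filter, 14 without the block, 116 with a filter of 5, 132 to 1253 under single omissions and 1152 in the CD71/CD24a sort alone. DMOG called 2, but 0 with no filter or a pseudocount of 0.1, 5 with records summed and 2 to 139 under single omissions. Dex with DMOG called 0, but 1 with a filter of 5. The sort called 5165, but 2182 and 2678 without the CD71/CD24a Dex or water library. Estimates that changed side were short of the threshold before and after. For Dex, single omissions placed Hdac2 from -0.12 to 0.017 (also 0.017 in the CD71/CD24a sort alone), Hdac8 from -0.10 to 0.11 and Hdac6 from -0.10 to 0.025. For DMOG they placed Hdac1 from -0.23 to 0.47, Hdac2 from -0.14 to 0.049, Hdac3 from -0.029 to 0.029, Hdac4 from -0.10 to 0.0054, Hdac5 from -0.046 to 0.16, Hdac8 from -0.18 to 0.15, Hdac10 from -0.13 to 0.35 and Hdac11 from -0.056 to 0.13. For the sort they placed Hdac3 from -0.055 to 0.0029 and Hdac5 from -0.23 to 0.086. With RPKM as deposited, sides changed for Hdac3 with DMOG (0.0080), for Hdac11 in the Dex with DMOG term (-0.0081), and between sorts for Hdac3 (0.15) and Hdac5 (0.030). The causes were not tested. Of 156 alternative values for Dex, 143 kept direction and side of the threshold, as did 126 of 136 for DMOG and 122 of 136 for the sort. From BFU-E to CFU-E, 4 of 59 alternative values differed from the main value and lay outside the counting interval of the ratio of levels. The same held for 17 of 59 from CFU-E to Ter119+ and 20 of 60 from BFU-E to Ter119+. That interval is for ratios without the pseudocount, so a main value can itself lie outside it. The counts therefore do not measure the size of a shift. Single omissions were not run for the Dex with DMOG term, since they leave no residual degree of freedom. Depth limits low genes most, as for Hdac8 with about 14.5 reads in Ter119+ cells.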
